A study of Homo sapiens with 6 samples.

Results

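The mitochondrially encoded genes of MDA-MB-231 cells, a human triple-negative breast cancer line, were compared between VASP knockdown and control cells. VASP is an actin-binding protein that promotes the elongation of actin filaments. The members were the rows of the gene count table whose symbol starts with MT-, which gave 37 genes of the 61155 rows: 13 protein-coding genes, 2 ribosomal RNA genes and 22 transfer RNA genes. The 3 knockdown libraries are titled shVASP and their characteristics name a siRNA against VASP. The 3 control libraries are titled plko, the name of an empty short hairpin vector, and their characteristics name a negative control siRNA. The titles and the characteristics thus name different reagents, and the groups were taken as the labels separate them. Both groups were grown in the same serum-supplemented minimal essential medium with insulin, were transiently transfected with Lipofectamine 2000, and were harvested 48 h later. Total RNA was extracted with Trizol and sequenced after Illumina TruSeq library preparation. All cells were of 1 line.

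The library totals lay between 28856610 and 30055503 counts. VASP itself had 396, 379 and 360 counts in the knockdown libraries, against 4544, 5036 and 4708 counts in the control libraries (log2 fold change -3.69, SE 0.06, adjusted p = 8.3e-24 by edgeR's quasi-likelihood test with Benjamini-Hochberg adjustment). VIM, the mesenchymal filament gene typical of this line, had 49354 to 51433 counts in knockdown and 47597 to 49473 counts in control libraries. The epithelial cadherin gene CDH1 had at most 3 counts in any library, and the stromal genes DCN and LUM had 0 in all of them. Of the endothelial genes, PECAM1 had 66, 68 and 50 counts in knockdown and 93, 77 and 76 counts in control libraries (log2 fold change -0.46, adjusted p = 0.026), and CDH5 had at most 7 counts in any library. The part of such counts in the results was not tested.

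The human mitochondrial genome is a small circular DNA molecule present in many copies per cell. It is transcribed from both strands into long precursors, and the transfer RNAs that lie between the other genes are cut out by RNase P and RNase Z, which frees the messenger and ribosomal RNAs. All the proteins it encodes are subunits of the oxidative phosphorylation complexes I, III, IV and V, whose other subunits, like all factors for mitochondrial transcription, RNA processing and translation, are made from nuclear genes. The steady-state level of a mitochondrial transcript therefore depends on both synthesis of the shared precursor and stability of the individual RNA.

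By the authors' annotation 28 of the 37 genes lie on the plus strand and 9 on the minus strand. The minus strand carries MT-ND6 and 8 of the transfer RNA genes. The genes are packed closely: each of the 22 transfer RNA genes has another gene within 10 bases on at least 1 side, and 16 have one on both sides. Coordinates are those of chrM in GRCh38, and the sequences are from GENCODE release 29 for the same build, in which all 37 members have the coordinates used by the authors. The longest overlaps between genes are shown first, because a fragment that overlapped both genes alike was not counted. The same holds for a fragment that spanned adjoining genes alike. The reading frames of MT-ATP8 (chrM:8366-8572) and MT-ATP6 (chrM:8527-9207) share 46 bases on the plus strand, chrM:8527-8572, with the start codon of MT-ATP6 and the stop codon of MT-ATP8 in capitals. MT-ND4L (chrM:10470-10766) and MT-ND4 (chrM:10760-12137) share 7 bases, which are in capitals within chrM:10750-10776. Shorter overlaps, of 3 bases between MT-TI and MT-TQ and of 1 base between MT-TC and MT-TY and between MT-ATP6 and MT-CO3, are not printed.
MT-ATP8 and MT-ATP6 overlap: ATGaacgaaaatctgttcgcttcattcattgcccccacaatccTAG
MT-ND4L and MT-ND4 overlap: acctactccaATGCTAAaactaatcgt

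The 3' ends of the coding sequences differ, and they are shown for the messenger RNAs that fell in knockdown, together with the other 2 genes that end in a lone T. In 6 of the 13 protein-coding genes the gene ends before a complete stop codon, which is then made by polyadenylation, and in the other 7 the stop codon is part of the gene. The ends of the 5 messenger RNAs that fell are printed 5' to 3' on the plus strand, with the last 4 codons in lower case and the bases after them in capitals.
MT-ND1 end (chrM:4249-4262): ccccctcaaaccTA
MT-ND2 end (chrM:5499-5511): ctaataatcttaT
MT-ND4 end (chrM:12125-12137): gggttttcctctT
MT-CYB end (chrM:15875-15887): ctcaaatgggccT
MT-ND5 end (chrM:14134-14148): ctcctaatcacaTAA
MT-ND1, MT-ND2, MT-ND4 and MT-CYB stop 1 or 2 bases past the last codon, while MT-ND5 carries a whole TAA. MT-CO3 and MT-ND3 did not pass the test.
MT-CO3 end (chrM:9978-9990): tgatgagggtctT
MT-ND3 end (chrM:10392-10404): gactgaaccgaaT
Of the 6 genes without a complete stop codon 4 fell, and of the 7 with one 1 fell, beside 18.3% of all genes tested that fell and 18.9% that rose (edgeR, adjusted p under 0.05). This division was made with the values known and carries no test.

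Mitochondrially encoded genes took a large part of every library. They held 12%, 14.6% and 13.5% of all counts in the knockdown libraries, against 15.1%, 13.7% and 14.3% in the control libraries. The means were 13.4% ± 1.32 in knockdown and 14.4% ± 0.710 in control (SD, n = 3 each), and the groups overlapped (two-sided exact permutation test, p = 0.4, where the smallest p that 3 against 3 allows is 0.1). Counting error was small beside this spread, since the widest 95% Wilson interval reached 0.0128 percentage points to either side. Knockdown library 1 was the lowest of the 6 libraries, and without it the difference was -0.298 percentage points in place of -0.977. In bulk RNA, fewer mitochondrial transcripts per cell and more RNA of other genes cannot be told apart.

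The protein-coding genes accounted for most of this share, with 9.98%, 12.1% and 11.2% in knockdown and 12.7%, 11.6% and 12.2% in control libraries (exact permutation p = 0.2, 0.5 after Benjamini-Hochberg adjustment over the 5 class and strand shares). The 2 ribosomal RNAs took 2.01%, 2.51% and 2.28% in knockdown and 2.37%, 2.04% and 2.08% in control libraries (exact p = 0.7). The transfer RNA genes took 0.0275%, 0.0319% and 0.0287% in knockdown and 0.0319%, 0.0269% and 0.0252% in control libraries (exact p = 0.5, adjusted 0.625). All 3 classes overlapped between the groups. The 9 minus strand genes together took 0.0502%, 0.0599% and 0.0618% in knockdown against 0.0761%, 0.0732% and 0.119% in control libraries. These groups did not overlap, and the exact p was the smallest possible, 0.1 (adjusted 0.5). The separation came from MT-ND6: the other 8 genes of the minus strand took 0.0255%, 0.0299% and 0.0268% in knockdown and 0.0294%, 0.0246% and 0.0228% in control libraries, which overlapped. Control library 3 was the highest for all 9 genes together, and the difference of -0.0321 percentage points became -0.0173 without it. Counting did not use strand, so a fragment antisense to a gene was counted to that gene as well.

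**Figure D1:**
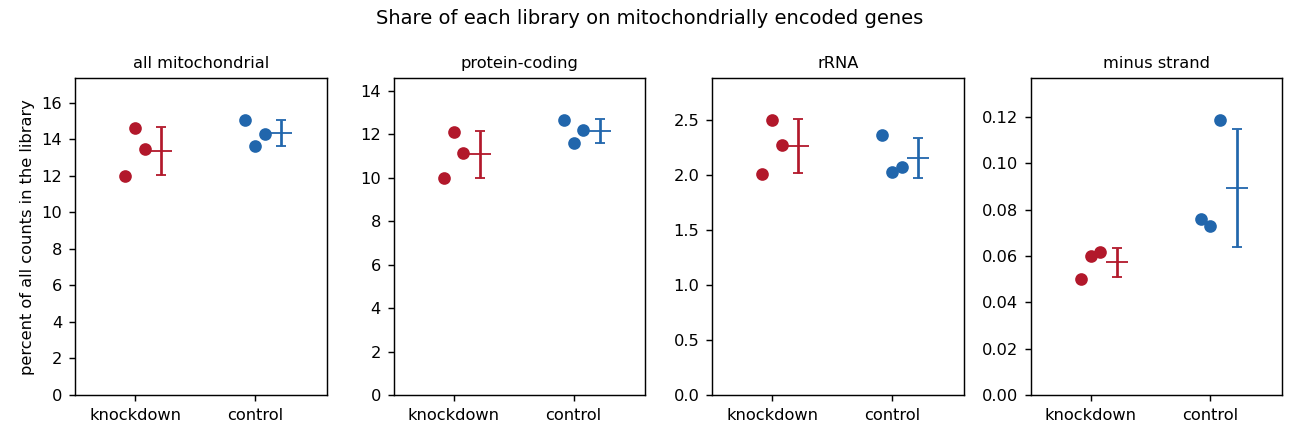
Percent of all counts in each library on all mitochondrially encoded genes, on the protein-coding and rRNA genes among them, and on those of the minus strand, with 3 knockdown libraries left of 3 control libraries. Points are libraries and bars are the mean ± SD, and the minus strand is the panel in which the groups do not overlap, through MT-ND6 (0.0502% to 0.0618% in knockdown, 0.0732% to 0.119% in control).

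Gene by gene, 30 of the 37 members had enough counts to be tested, and 10 of them fell in knockdown while 1 rose (edgeR, adjusted p under 0.05). Among all 16633 genes tested, 18.3% fell and 18.9% rose. The genes that fell were MT-ND1, MT-ND2, MT-ND4, MT-ND5 and MT-CYB among the messenger RNAs and MT-TV, MT-TL1, MT-TY, MT-TK and MT-TE among the transfer RNAs, and MT-TP rose. The groups did not overlap for 13 of the 30 members, beside 47.6% of all tested genes. The median log2 fold change was -0.23 over the tested members and -0.01 over all tested genes. DESeq2 gave 6 members that fell, of 26 with an adjusted p, and 1 that rose, beside 15.8% that fell and 20.2% that rose among all genes it tested. Calls on MT-ND4, MT-ND5, MT-TL1, MT-TV, MT-TE and MT-TP held under every alternative run for them. For MT-TE these were 11 alternatives in place of 13, since it had no DESeq2 adjusted p and did not pass the filter of 1 CPM in 3 libraries.

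**Figure D2:**
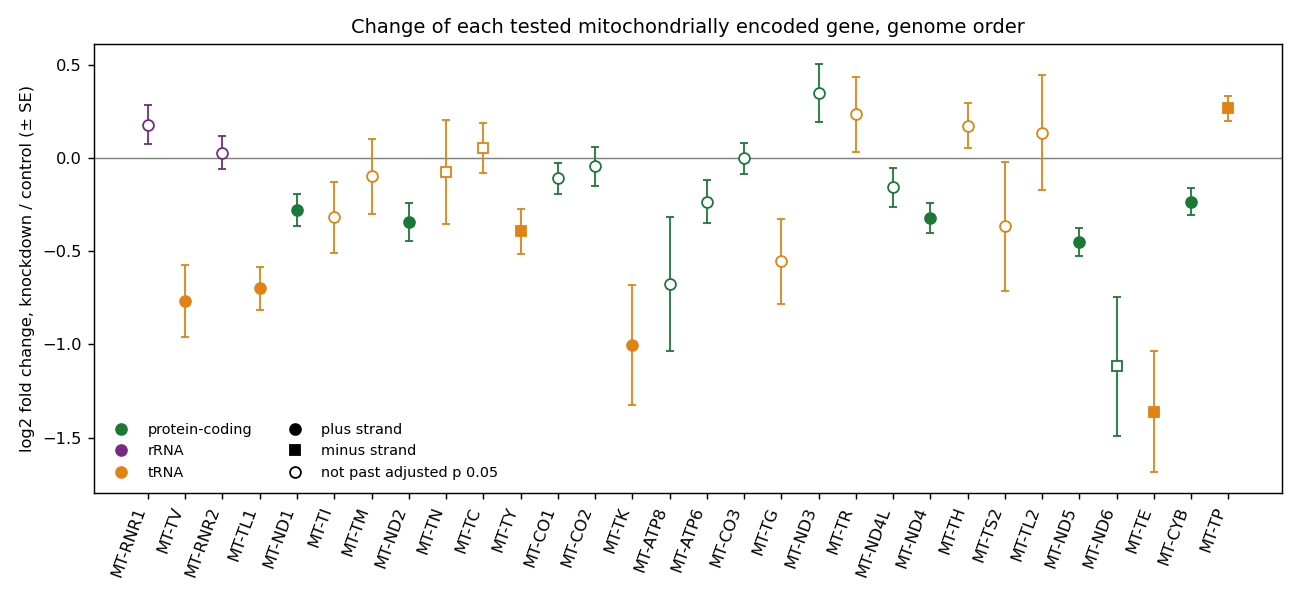
Log2 fold change of knockdown over control for the 30 tested mitochondrially encoded genes in genome order, with bars of 1 SE, colours for the RNA class, circles for the plus and squares for the minus strand. Filled symbols passed an adjusted p of 0.05: 10 lie below 0, and MT-TP is the 1 above it.

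Complex I, the NADH dehydrogenase at the entry of the respiratory chain, has 7 mitochondrially encoded subunits, of which 4 fell and 0 rose, beside 18.3% and 18.9% of all tested genes (median log2 fold change -0.32). MT-ND5, a subunit of the proton-pumping membrane arm (chrM:12337-14148, plus strand), had 2761, 2861 and 3372 CPM (counts relative to library size, scaled by TMM factors) in knockdown libraries, against 4126, 3776 and 4391 CPM in control libraries. The highest knockdown library stayed below the lowest control library. MT-ND5 fell by 26.8%, with means of 2998 ± 328 CPM in knockdown and 4098 ± 308 CPM in control (SD, n = 3 each). The test gave a log2 fold change of -0.45 (SE 0.07) with an adjusted p of 6.9e-05. MT-ND4, a further membrane-arm subunit encoded upstream of it, averaged 10037 ± 1194 CPM in knockdown and 12546 ± 835 CPM in control (log2 fold change -0.32, SE 0.08, adjusted p = 0.0029). Its 3 knockdown libraries were also all below its 3 control libraries.

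MT-ND2, another membrane-arm subunit (chrM:4470-5511), had 9169 ± 1403 CPM in knockdown and 11650 ± 1156 CPM in control (log2 fold change -0.35, SE 0.10, adjusted p = 0.017). Its groups were separated by a narrow gap, 10494 CPM in the highest knockdown and 10600 CPM in the lowest control library, and its adjusted p was 0.075 with DESeq2 and 0.229 without the low-count filter. MT-ND1, which helps form the ubiquinone-binding site (chrM:3307-4262), had 3681, 4608 and 4425 CPM in knockdown and 5112, 4620 and 5707 CPM in control libraries. This was a log2 fold change of -0.28 (SE 0.09, adjusted p = 0.018), and here too the highest knockdown library lay just under the lowest control library. The MT-ND1 call was lost with DESeq2 (adjusted p = 0.10), without knockdown library 1 (0.080) and without control library 3 (0.053).

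The other 3 complex I genes did not pass the test. MT-ND4L, a small membrane subunit, had 2245, 2687 and 2982 CPM in knockdown and 3275, 2648 and 2908 CPM in control libraries (log2 fold change -0.16, adjusted p = 0.27), and its adjusted p was 0.029 without knockdown library 3. MT-ND3, a small subunit at the junction of the 2 arms of the complex (chrM:10059-10404), was the protein-coding gene with the highest fold change: 3625, 5235 and 4062 CPM in knockdown, against 3826, 3196 and 3131 CPM in control libraries (log2 fold change 0.35, SE 0.15, adjusted p = 0.13). Its groups overlapped through knockdown library 1, and without that library its adjusted p was 0.011.

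MT-ND6, the single protein-coding gene of the minus strand (chrM:14149-14673), encodes a further membrane-arm subunit. It had 240, 305 and 346 CPM in knockdown libraries, against 479, 483 and 970 CPM in control libraries. All 3 knockdown libraries were below all 3 control libraries, and control library 3 stood well above the other 2 controls. The log2 fold change was -1.12 (SE 0.37, adjusted p = 0.086 by edgeR), which did not pass, while DESeq2 gave an adjusted p of 0.018. Without control library 3 the log2 fold change was -0.70 (adjusted p = 0.058). Per 100 counts of MT-ND5, which ends at the adjoining base on the opposite strand, MT-ND6 had 8.70, 10.7 and 10.2 counts in knockdown and 11.6, 12.8 and 22.1 counts in control libraries. This ratio, like those below, was chosen after the values were seen and carries no test.

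MT-CYB, which encodes cytochrome b of complex III (chrM:14747-15887), had 7436, 8995 and 8472 CPM in knockdown and 10237, 9246 and 9815 CPM in control libraries. The groups did not overlap (log2 fold change -0.23, SE 0.07, adjusted p = 0.013). The call was lost without knockdown library 1 (adjusted p = 0.114) and without control library 1 (0.063). As a share of mitochondrial messenger RNA counts MT-CYB took 7.65%, 7.31% and 7.69% in knockdown and 7.88%, 8.01% and 7.95% in control libraries.

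None of the 3 complex IV genes, which form the catalytic core of cytochrome c oxidase, passed the test. MT-CO1 (chrM:5904-7445), the row with the highest mean level of the whole table, had 19979, 23931 and 23639 CPM in knockdown and 26784, 23209 and 22886 CPM in control libraries (log2 fold change -0.11, SE 0.08, adjusted p = 0.31). MT-CO2 (chrM:7586-8269) had a log2 fold change of -0.05 (SE 0.10, adjusted p = 0.77), with 15047, 19615 and 15225 CPM in knockdown and 19393, 16095 and 16003 CPM in control libraries. MT-CO3 (chrM:9207-9990) averaged 16442 ± 1956 CPM in knockdown and 16473 ± 1404 CPM in control (SD, n = 3 each), a log2 fold change of -0.00 (SE 0.08, adjusted p = 0.99). The groups overlapped for all 3 genes.

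The 2 ATP synthase genes likewise gave no call. MT-ATP6, whose product lines the proton channel of complex V, had 10722, 14911 and 11951 CPM in knockdown and 14872, 13077 and 16278 CPM in control libraries (log2 fold change -0.23, SE 0.11, adjusted p = 0.13). It overlapped through knockdown library 2, and without that library its adjusted p was 0.0025. MT-ATP8, the short subunit translated from the same messenger RNA, had 23.3, 39.5 and 28.1 CPM in knockdown and 42.5, 34.8 and 67.9 CPM in control libraries (log2 fold change -0.68, SE 0.36, adjusted p = 0.23). Control library 3 held the highest value here, as it did for MT-ND6.

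**Figure D3:**
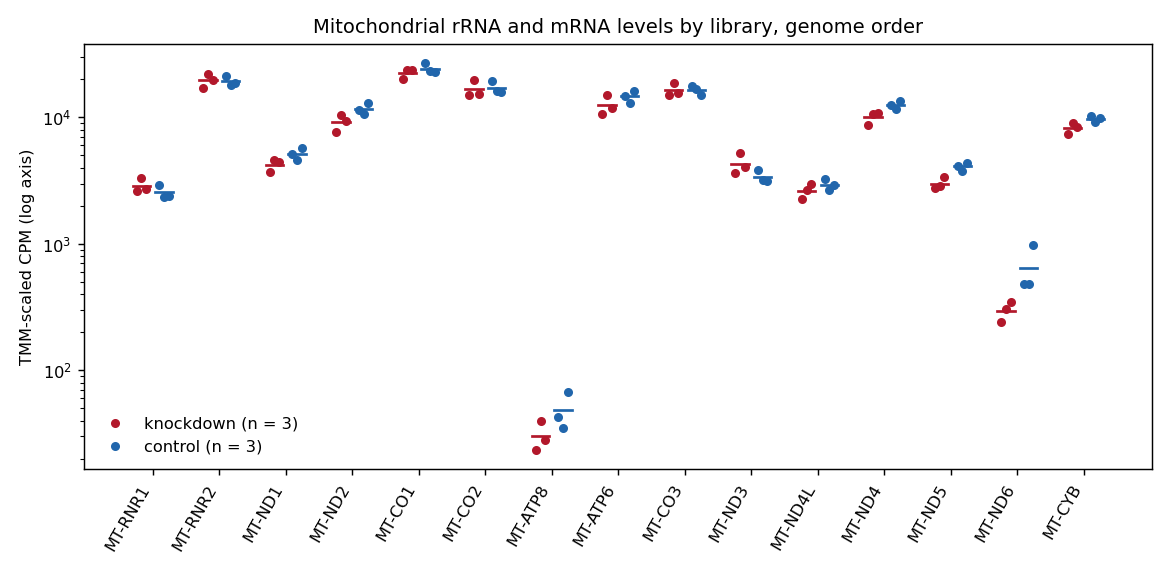
TMM-scaled CPM on a log axis for the 2 rRNA and 13 protein-coding genes in genome order, with 3 knockdown libraries left of 3 control libraries at each gene and lines at the group means. MT-ND5 and MT-ND4 show separated groups (2761 to 3372 against 3776 to 4391 CPM for MT-ND5), and control library 3 stands out at MT-ND6 with 970 CPM.

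Because these genes share long precursors, their make-up within the mitochondrial messenger RNA was also described. The 7 complex I genes took 29.7%, 30.0% and 32% of it in knockdown and 31.4%, 32.1% and 35.2% in control libraries. The 3 complex IV genes took 51.5%, 50.6% and 49.4% in knockdown and 49.2%, 48.5% and 43.6% in control libraries. Within these totals, MT-ND3 took a higher share in every knockdown library, 3.73%, 4.25% and 3.69%, than in any control library, 2.95%, 2.77% and 2.54%. MT-ND5 took the lower share in every knockdown library, 2.84%, 2.32% and 3.06%, beside 3.18%, 3.27% and 3.56% in control libraries. Per 100 counts of MT-ND2, MT-ND3 had 47.1, 49.9 and 43.6 counts in knockdown and 33.4, 30.2 and 24.3 counts in control libraries. Both genes lie on the plus strand and are transcribed within the same precursor.

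**Figure D4:**
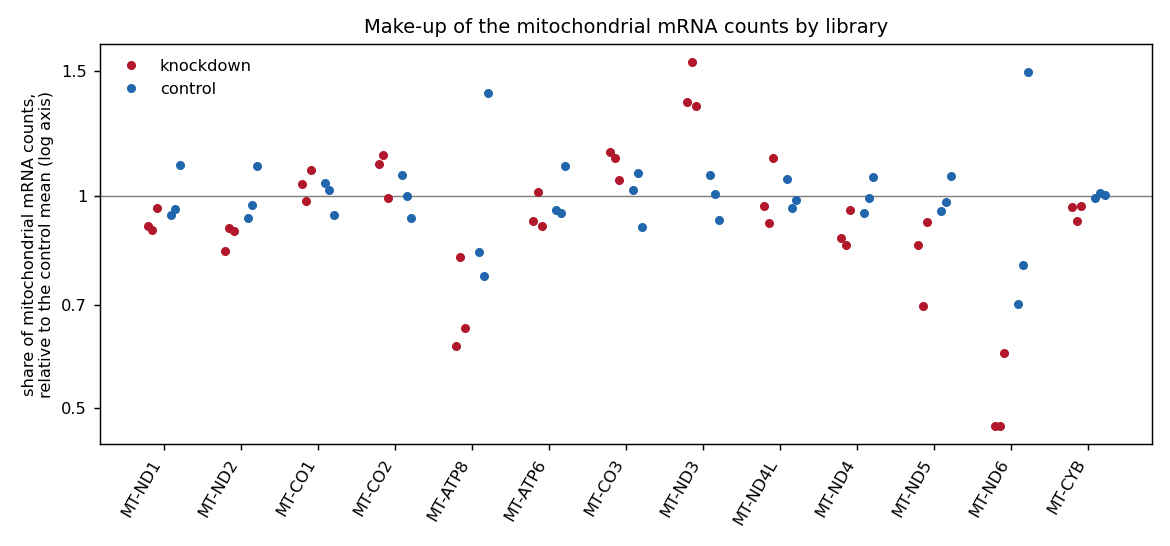
Share of the mitochondrial mRNA counts of each library taken by each protein-coding gene, divided by the mean share in the control libraries, on a log axis, with knockdown left of control at each gene. MT-ND3 lies above the control libraries in all 3 knockdown libraries and MT-ND5 and MT-ND6 lie below them, while MT-ND6 and MT-ATP8 have their highest point in control library 3.

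The ribosomal RNAs of the mitochondrial ribosome gave no call. MT-RNR2, the large-subunit rRNA (chrM:1671-3229), had 17018, 22153 and 19770 CPM in knockdown and 21353, 17899 and 18601 CPM in control libraries (log2 fold change 0.03, SE 0.09, adjusted p = 0.84). MT-RNR1, the small-subunit rRNA (chrM:648-1601), had 2605, 3335 and 2731 CPM in knockdown and 2910, 2351 and 2404 CPM in control libraries (log2 fold change 0.18, SE 0.10, adjusted p = 0.21). Both overlapped between the groups, and without control library 1 the adjusted p of MT-RNR1 was 0.016. Per 100 counts of MT-RNR2, MT-RNR1 had 15.3, 15.1 and 13.8 counts in knockdown and 13.6, 13.1 and 12.9 counts in control libraries, which did not overlap.

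Divided by gene length, the levels of the gene rows spanned a wide range. MT-CO2 had the highest level per length, 24312 ± 3783 CPM per kb in knockdown and 25093 ± 2824 CPM per kb in control (SD, n = 3 each). MT-CO3 followed with 20972 ± 2495 CPM per kb in knockdown and 21011 ± 1791 CPM per kb in control, and MT-ATP6 had 18397 ± 3162 CPM per kb in knockdown and 21648 ± 2356 CPM per kb in control. MT-CO3 and MT-ATP6 differed by less than the larger SD in both groups, and MT-CO2 was above MT-CO3 by less than the larger SD in knockdown and by more than it in control. MT-CO1, MT-RNR2 and MT-ND3 came next in knockdown, at 14602, 12602 and 12449 CPM per kb. In control MT-CO1 and MT-RNR2 had 15754 and 12370 CPM per kb, and MT-ND3, at 9782 CPM per kb, lay below MT-ND2 and MT-ND4L. In knockdown MT-RNR2 and MT-ND3 differed by less than their SDs. MT-ND4L, MT-ND2, MT-ND4 and MT-CYB lay between 7275 and 8882 CPM per kb in knockdown and between 8559 and 11181 CPM per kb in control.

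The lower end began with MT-ND1, at 4433 CPM per kb in knockdown and 5383 CPM per kb in control, and MT-RNR1, at 3030 CPM per kb in knockdown and 2678 CPM per kb in control. MT-ND5 had the lowest level per length of the plus-strand genes other than MT-ATP8 and the transfer RNAs, 1655 ± 181 CPM per kb in knockdown and 2262 ± 170 CPM per kb in control (SD, n = 3 each). MT-ND6 had 565 ± 101 CPM per kb in knockdown and 1227 ± 538 CPM per kb in control. MT-ATP8 came last of the protein-coding genes, with 146 ± 40.3 CPM per kb in knockdown and 234 ± 83.5 CPM per kb in control, and 46 of its 207 bases lie in the overlap with MT-ATP6. Both genes are read from the same messenger RNA, so the gap between their rows is not one between separate RNAs. Fragments that overlapped both rows alike were not counted. Their part in the low MT-ATP8 row was not tested.

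The transfer RNA genes, each 59 to 75 bases long, had far lower counts, and a count on such a short row need not come from the mature transfer RNA. Fragments that spanned a transfer RNA gene and its neighbour alike were not counted. What this removed from each row was not tested. Of the 22, 15 were tested, 5 fell and 1 rose, beside 18.3% of all tested genes that fell and 18.9% that rose. The 3 with the highest levels all lie on the minus strand, and their sequences are given 5' to 3' on that strand, with the anticodon in capitals. Counting did not use strand, so counts on these rows may come from RNA of either strand. MT-TC, for cysteine, lies at chrM:5761-5826, MT-TN, for asparagine, at chrM:5657-5729, and MT-TP, for proline, at chrM:15956-16023.
MT-TC: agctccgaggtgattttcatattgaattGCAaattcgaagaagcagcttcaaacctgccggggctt
MT-TN: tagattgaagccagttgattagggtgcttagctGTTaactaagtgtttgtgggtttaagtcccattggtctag
MT-TP: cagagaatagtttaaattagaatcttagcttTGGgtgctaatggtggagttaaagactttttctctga

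MT-TP rose. It had 71.8, 84.9 and 86.2 CPM in knockdown libraries, against 71.1, 61.8 and 69.0 CPM in control libraries, with means of 81.0 ± 7.96 CPM in knockdown and 67.3 ± 4.91 CPM in control (SD, n = 3 each), which gave a log2 fold change of 0.27 (SE 0.07, adjusted p = 0.0046). Knockdown library 1 lay just above the highest control library. MT-CYB, which lies nearby on the opposite strand, fell, and per 100 counts of MT-CYB the MT-TP row had 0.966, 0.944 and 1.02 counts in knockdown and 0.695, 0.668 and 0.703 counts in control libraries. MT-TC had 130, 156 and 129 CPM in knockdown and 157, 125 and 118 CPM in control libraries (log2 fold change 0.05, adjusted p = 0.80). MT-TN had 42.8, 58.8 and 44.3 CPM in knockdown and 66.1, 51.6 and 36.2 CPM in control libraries (log2 fold change -0.08, adjusted p = 0.86). Neither separated the groups.

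Of the 5 transfer RNA genes that fell, MT-TL1, for leucine (chrM:3230-3304), had the most counts. It directly follows MT-RNR2 and holds a binding site of the transcription terminator MTERF1. MT-TL1 had 154, 193 and 137 counts in knockdown libraries, against 280, 251 and 234 counts in control libraries, with no overlap (log2 fold change -0.70, SE 0.12, adjusted p = 5.1e-05). Per 100 counts of MT-RNR2 it had 0.0295, 0.0295 and 0.0236 counts in knockdown and 0.0449, 0.0484 and 0.0435 counts in control libraries. MT-TV, for valine, lies between the ribosomal RNA genes (chrM:1602-1670) and had 38, 36 and 25 counts in knockdown and 57, 48 and 59 counts in control libraries (log2 fold change -0.77, SE 0.20, adjusted p = 0.0033). Both of these flank MT-RNR2, which was not called itself.

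MT-TE, for glutamate, lies next to MT-ND6 on the minus strand (chrM:14674-14742). It had 12, 12 and 15 counts in knockdown libraries, against 20, 28 and 50 counts in control libraries (log2 fold change -1.36, SE 0.32, adjusted p = 0.0024). As for MT-ND6, control library 3 held the highest value, and without it the log2 fold change was -0.92 (adjusted p = 0.022). MT-TY, for tyrosine (chrM:5826-5891, minus strand), had 108, 121 and 134 counts in knockdown and 166, 145 and 153 counts in control libraries (log2 fold change -0.39, adjusted p = 0.013). MT-TK, for lysine (chrM:8295-8364), had 10, 10 and 7 counts in knockdown and 18, 15 and 20 counts in control libraries (log2 fold change -1.0, adjusted p = 0.016). None of these 3 overlapped, but the MT-TK call was lost without knockdown library 3 (adjusted p = 0.075) or control library 3 (0.056). The MT-TY call was lost with DESeq2 (adjusted p = 0.056), without knockdown library 1 (0.095) and without control library 1 (0.058).

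The remaining tested transfer RNA genes gave no call. MT-TG, for glycine, had 46, 20 and 48 counts in knockdown and 54, 51 and 58 counts in control libraries (log2 fold change -0.56, adjusted p = 0.060), and its groups did not overlap. Knockdown library 2 was the lowest, and the adjusted p was 0.016 without knockdown library 3 and 0.042 without the low-count filter. MT-TI, MT-TM and MT-TS2, for isoleucine, methionine and serine, had log2 fold changes of -0.32, -0.10 and -0.37. MT-TH, MT-TR and MT-TL2, for histidine, arginine and leucine, had 0.17, 0.23 and 0.14 on the same scale. MT-TF, MT-TQ, MT-TW, MT-TA, MT-TS1, MT-TD and MT-TT had between 0 and 14 counts in any library and were not tested.

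Genes of similar base composition were set beside the members. The 13 protein-coding members have a GC content of 39.6% to 47.7%. Among 5620 tested genes outside the mitochondrial genome within that range, 9.73% fell and 27.2% rose, with a median log2 fold change of 0.08. With a correction for GC content and transcript length, 10 members fell and 1 rose, beside 12.2% of genes that fell and 17.5% that rose in that fit. The log2 fold change of MT-ND5 was then -0.46, that of MT-ND4 -0.34 and that of MT-TP 0.22.

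Nuclear DNA holds copies of mitochondrial genes whose fragments can be hard to separate from those of the originals. The table had 407 rows of such copies, of which 296 had no count in any library and 17 were tested; together they held 0.159% to 0.206% of each library. MTATP6P1, by far the most abundant, had 9.29 to 12.9 counts per 100 of MT-ATP6 and a log2 fold change of -0.05 (adjusted p = 0.73). MTCO1P12 fell, with 113, 122 and 128 CPM in knockdown and 148, 142 and 129 CPM in control libraries (log2 fold change -0.21, adjusted p = 0.0054). MTCO2P22 rose (log2 fold change 1.31, adjusted p = 0.00074), with low means of 1.00 CPM in knockdown and 0.402 CPM in control. It was named after its values were seen. MTCO2P12 and MTCO3P12 did not pass, at log2 fold changes of 0.18 and 0.04. Copies of MT-ND1, MT-ND2, MT-ND4 and MT-ND5 were also tested and gave no call. Of these, MTND2P28 had means of 41.6 CPM in knockdown and 45.8 CPM in control, and MTND4P12 had 35.4 and 34.1 CPM. Both were named after their values were seen. Fragments that matched several places were not counted. The levels of all members with such copies, the genes that fell included, are thus uncertain by what the copies took or removed.

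The nuclear genes of mitochondrial function were counted by list, beside 18.9% of all tested genes that rose and 18.3% that fell. Of the 76 tested nuclear subunits of complexes I to V, 12 rose and 9 fell, with a median log2 fold change of 0.04. In complex I, 6 of 35 rose and 6 fell: NDUFA5 and NDUFA12, accessory subunits, rose by log2 fold changes of 0.33 and 0.21 (adjusted p = 0.00011 and 0.0098), and NDUFS7, a core iron-sulfur subunit, had -0.30 (0.012). These complex I counts rested on few libraries: 1 rose without knockdown 2 or control 2, and the number that fell was 3 without knockdown 1 or knockdown 2, 0 without knockdown 3 or control 2, 0 with the GC and length correction, 1 with DESeq2 and 2 without the low-count filter. In complex II, 1 of 4 rose, the anchor subunit SDHD (log2 fold change 0.19, adjusted p = 0.0031), and with the GC and length correction 1 fell. In complex III, UQCRB rose (0.25, adjusted p = 0.0036) and CYC1 and UQCRC1 fell (-0.24 and -0.20, adjusted p = 0.00056 and 0.0032). In complex IV, 1 of 11 rose (0 to 2 under the alternatives) and 0 fell (1 without knockdown 1 or control 3). The gene that rose was COX7B (0.17, adjusted p = 0.037). In complex V, 3 of 17 rose and 1 fell: ATP5PB and ATP5MD had 0.21 and 0.32 (adjusted p = 0.0021 and 0.023), and the catalytic-domain subunit ATP5F1A had -0.19 (0.0031). In complex V 1 rose without control 2 or control 3, and 5 rose with the GC and length correction. NDUFS7, CYC1, UQCRC1, UQCRB, SDHD and COX7B lost their calls with the GC and length correction, and CYC1 then had a log2 fold change of 0.00. Leaving out a library also ended the calls on NDUFA12 (knockdown 2 or control 2, adjusted p = 0.069 and 0.061), on NDUFS7 (knockdown 2, knockdown 3 or control 2, 0.056 to 0.080) and on ATP5MD (control 2 or control 3, 0.106 and 0.112). The COX7B call was lost without knockdown 2, knockdown 3, control 1 or control 2 (adjusted p = 0.051 to 0.223).

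Among factors that make and handle mitochondrial RNA, the members that rose outnumbered those that fell. Of 10 transcription factors of the mitochondrial genome, 3 rose and 0 fell. TFAM, which packages mitochondrial DNA and activates its promoters, averaged 115 ± 1.49 CPM in knockdown and 92.7 ± 3.89 CPM in control (SD, n = 3 each; log2 fold change 0.31, adjusted p = 2.6e-05). MTERF1, the terminator that binds within MT-TL1, averaged 9.24 ± 0.311 CPM in knockdown and 6.67 ± 0.419 CPM in control (log2 fold change 0.47, adjusted p = 0.00035). A link between MTERF1 and the MT-TL1 row was not tested. TFB2M, the promoter-melting factor, had 0.19 (adjusted p = 0.024), a call lost with the GC and length correction (adjusted p = 0.128) and without knockdown 1, knockdown 3, control 1 or control 2 (0.061 to 0.117). Of 31 RNA processing and stability genes, 15 rose and 1 fell, beside 18.9% and 18.3% of all tested genes. TRMT10C, a subunit of mitochondrial RNase P, rose (log2 fold change 0.38, adjusted p = 1.1e-05), as did the poly(A) polymerase MTPAP (0.30, adjusted p = 0.00030).

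The 1 processing gene that fell (2 without control library 1) was FASTK, a mitochondrial isoform of which is known to be required for the MT-ND6 messenger RNA. FASTK averaged 49.1 ± 0.903 CPM in knockdown and 68.7 ± 3.79 CPM in control (SD, n = 3 each), which gave a log2 fold change of -0.48 (SE 0.05, adjusted p = 3.0e-07). It was lower in every knockdown library than in any control library, as was the MT-ND6 row. That row did not pass the edgeR test (adjusted p = 0.086) and was counted without strand. A link between them was not tested.

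Among genes for mitochondrial translation, 25 of 73 ribosomal protein genes rose and 4 fell, beside 18.9% and 18.3% of all tested genes. MRPL3 had a log2 fold change of 0.31 (adjusted p = 4.1e-05), MRPL10 had -0.40 (3.1e-06) and MRPL41 had -0.36 (0.00037). MRPL41 had 0.07 with the GC and length correction, and 7 ribosomal protein genes fell without knockdown library 2. Translation factors gave 8 that rose and 2 that fell of 15 (1 fell without knockdown 1, knockdown 3, control 2 or control 3, with the GC and length correction and without the low-count filter), among them the initiation factor MTIF2 (0.43, adjusted p = 8.2e-06), the elongation factor GFM1 (0.31, 8.3e-05) and the release factor MTRF1L (0.39, 0.00023). Of 20 aminoacyl-tRNA synthetases 8 rose and 1 fell, with GARS and NARS2 at 0.30 each (adjusted p = 0.00016 and 0.0018) and CARS2, which charges the cysteine tRNA, at -0.20 (0.0049). Without control library 2 the number of synthetases that rose was 4. The CARS2 call was lost with the GC and length correction.

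Genes that maintain mitochondrial DNA were split, with 5 that rose and 3 that fell of 19, beside 18.9% and 18.3% of all tested genes. The number that rose was 3 without knockdown 1 or knockdown 3 and 2 without control 2, and the number that fell was 1 with the GC and length correction. TK2, the mitochondrial thymidine kinase, and POLG, the DNA polymerase, had log2 fold changes of -0.36 and -0.26 (adjusted p = 4.2e-05 and 0.00080), and the nuclease EXOG had 0.29 (0.0046). Of 13 regulators of mitochondrial biogenesis 3 rose and 3 fell: NFE2L2 had 0.33 (adjusted p = 1.3e-05), while the coactivator PPARGC1A and its partner ESRRA had -0.45 and -0.32 (0.00047 and 0.00058). With the GC and length correction 1 regulator rose and 1 fell, and POLG and ESRRA lost their calls. Of 17 proteostasis genes 4 rose and 3 fell, with the chaperones HSPA9 and HSPD1 at 0.36 and 0.25 (adjusted p = 7.9e-06 and 0.00055) and the protease SPG7 at -0.24 (0.0017). With that correction, which ended the SPG7 call, 7 rose and 1 fell, and 7 rose without control library 3.

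VASP acts on actin, and actin also takes part in mitochondrial division. Of 14 fission, fusion and mitochondrial actin genes 7 rose and 2 fell, beside 18.9% and 18.3% of all tested genes. With the GC and length correction 4 rose and 1 fell, beside 17.5% and 12.2% of all genes in that fit. INF2, a formin that polymerises actin at mitochondrial constriction sites, averaged 133 ± 7.83 CPM in knockdown and 178 ± 10.4 CPM in control (SD, n = 3 each; log2 fold change -0.42, adjusted p = 1.7e-06). SPIRE1, an actin nucleator with a mitochondrial isoform, rose (0.33, adjusted p = 7.3e-05), and so did OPA1, the inner-membrane fusion GTPase (0.30, adjusted p = 3.2e-05). Over all 14 lists of mitochondrial function, 90 of 288 tested genes rose and 28 fell, and the median log2 fold change was 0.07. These are 31.3% and 9.72%, beside 18.9% and 18.3% of all tested genes. Among the 5620 tested genes in the GC range of the protein-coding members, 27.2% rose and 9.73% fell. With the GC and length correction 86 of 287 listed genes rose and 13 fell, beside 17.5% and 12.2% of all genes in that fit.

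A list of long and small non-coding RNAs from nuclear genes was included as a view of RNA classes. Of its 8 tested members 0 rose and 4 fell, beside 18.9% and 18.3% of all tested genes. The number that fell was 2 with DESeq2 and without knockdown 1, knockdown 2 or control 2, and 1 without the low-count filter. Those that fell included the nuclear-retained NEAT1 (log2 fold change -0.35, adjusted p = 0.00016) and the snoRNA host gene SNHG5 (-0.15, 0.014). RMRP, the RNA of RNase MRP, had 18, 15 and 7 counts in knockdown and 20, 24 and 23 counts in control libraries (-0.78, adjusted p = 0.044). The RMRP and SNHG5 calls were lost without the low-count filter (adjusted p = 0.070 for each) and without scaling factors (0.051 for each). SNHG5 also lost its call without knockdown library 1 (0.071), and RMRP without knockdown 2, knockdown 3 or any control library (0.057 to 0.249) and with the GC and length correction (0.188). Their part in the values of the mitochondrially encoded genes was not tested.

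**Figure D5:**
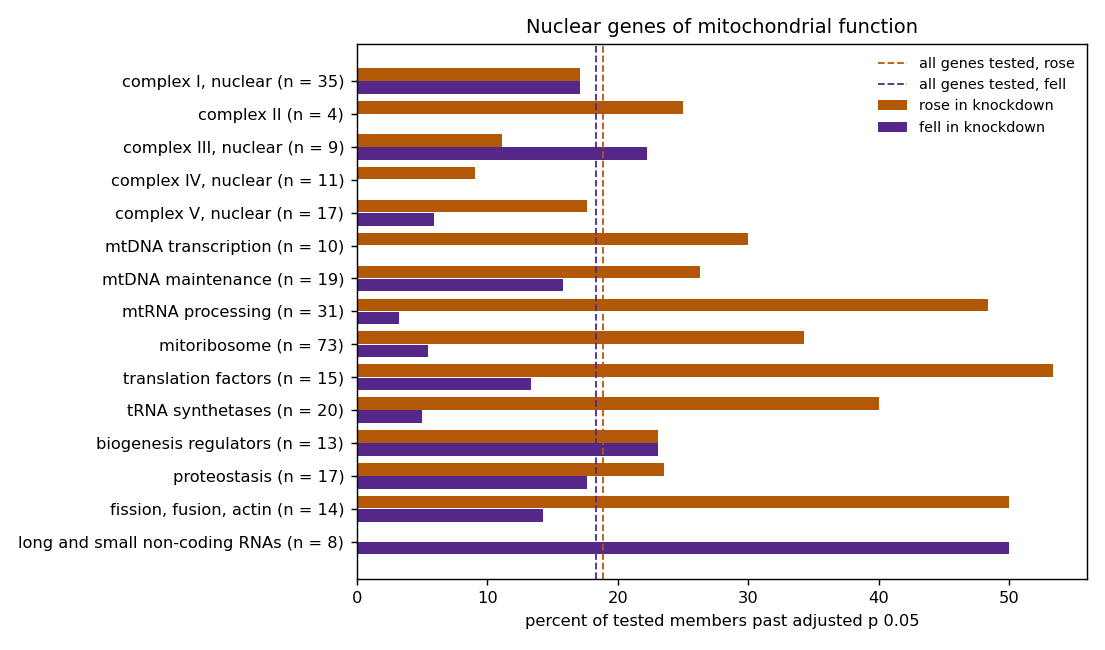
Percent of the tested members of each nuclear list that rose and that fell in knockdown at an adjusted p under 0.05, with the list size in brackets and dashed lines at the percentages over all genes tested (18.9% rose, 18.3% fell). RNA processing (15 of 31 rose, 1 fell) and translation factors (8 of 15 rose, 2 fell) are among several lists above the line for genes that rose. Complex II, complex IV and mtDNA transcription have no gene that fell.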

How the data were processed

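RNA-seq of 3 knockdown and 3 control libraries was analysed from 1 deposited table of counts per gene. Per the file headers, fragments were counted with featureCounts 1.6.4 against GENCODE 32 as pairs, without strand, and fragments matching several places, or overlapping several genes alike, were left out. The submitters' processing notes name Trim Galore 0.6.4, STAR 2.7.1a and the hg38 build. The counts were used as deposited, with no normalization before the steps given here.

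Genes were filtered with filterByExpr (16633 of 61155 kept), scaled by TMM and tested with edgeR 4.0.16's quasi-likelihood test (R 4.3.3) with Benjamini-Hochberg adjustment over all genes tested and a threshold of 0.05. DESeq2 1.42.0 (adjusted p for 14074 genes), other scalings and filters, a GC content and length correction and leaving out each library were alternatives. The correction fitted natural splines of GC content and log length by linear regression in each library (5 degrees of freedom each, 97.4% of tested genes with a GC value). The fitted values entered edgeR as offsets. Shares were compared with a two-sided exact permutation test (scipy 1.17.1). Wilson intervals cover counting error only. The biological coefficient of variation was 4.81%. Only the main edgeR fit was tested on simulated data, with the same dispersion for every gene. That simulation does not cover the alternatives or genes that spread more, such as MT-ND6.

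Control columns carry no sample number of their own, so control libraries 1 to 3 are named in table order. Nothing in the labels ties the libraries to separate cultures. The p-values therefore measure only how far these libraries spread, and that spread may be technical. The genes named were VASP, all protein-coding and ribosomal RNA members, the tested transfer RNAs, up to 3 genes past the threshold with the smallest p of each list, and the 4 most abundant nuclear copies. Cell type markers and a few further nuclear copies were named besides. The members and the gene lists were chosen with earlier results of these data known.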

Additional observations from a re-analysis of the deposited data

How the results depend on the processing

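Of the 11 calls on mitochondrially encoded genes, 6 held under every alternative run for them, and no member with a call changed direction. Among those 6, MT-TE was covered by 11 alternatives, DESeq2 not among them, and the others by 13. The number of members that fell was 10, and 6 with DESeq2; it lay between 7 and 11 when single libraries were left out, and the number that rose between 1 and 2. Among nuclear genes of mitochondrial function the number that fell was 28, against 13 with the GC and length correction, and lay between 18 and 30 with single libraries left out, while the number that rose lay between 61 and 93. With that correction CYC1 and MRPL41 changed direction, to log2 fold changes of 0.00136 and 0.0745. The cause was not tested. Leaving out single libraries, the difference in share, knockdown minus control, lay between -1.61 and -0.298 percentage points for all members, -1.60 and -0.533 for protein-coding genes, -1.58 and -0.270 for the plus strand and -0.0402 and -0.0173 for the minus strand. With MT-ND6 left out, an alternative chosen after seeing the data, the minus strand difference changed sign, to 0.00181. It lay between -0.0141 and 0.232 for ribosomal RNA, changing sign without knockdown library 2, and between -2.55e-05 and 0.00332 for transfer RNA, changing sign without control library 3. No paired analysis was possible because the control columns carry no replicate number of their own. Depth limits the transfer RNA genes: 7 had too few counts to be tested.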
